A study of Mus musculus with 8 samples.

Results

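The alarmins IL-33 and TSLP, their receptors, and the cytokines IL-4 and IL-13 with their receptor chains were followed in mouse skin. The 10 genes were chosen by name (Il33, Il1rl1, Tslp, Crlf2, Il4, Il13, Il4ra, Il13ra1, Il13ra2 and Il2rg) from the 22740 protein-coding genes listed, and all 10 were listed. The samples were whole skin of 8 female BALB/c mice that were sequenced singly and formed 4 groups of 2, while the submitters' design line speaks of 16 samples. CTL mice drank water, and butyrate mice drank 400 mM sodium butyrate from 2 weeks before the allergen period. Lesional skin was dorsal skin that had received 15 µg of house dust mite (HDM) extract under an occlusive patch after shaving, in 4 exposures over 2 weeks. Baseline skin came from mice that had received no allergen and was taken when the butyrate treatment ended. By the methods all mice, CTL mice included, ate a low-fibre diet without additives. By the methods, mice were 6 to 8 weeks old when the allergen model was induced. No age at harvest and no separate age of the baseline mice is given. The first number in the sample names differs between the baseline and the lesional mice, so that HDM, shaving and patching, and the set of mice cannot be told apart.

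Keratinocytes and other barrier cells release IL-33 and TSLP when they are damaged, and allergic skin inflammation is a setting in which both are known. IL-33 binds ST2, the product of Il1rl1, on type 2 innate lymphoid cells, mast cells, basophils and T helper 2 cells, and TSLP binds a pair made of Crlf2 and the IL-7 receptor alpha chain. Cells activated in this way make IL-4 and IL-13, whose signal runs through Il4ra paired with Il2rg or with Il13ra1 and ends in phosphorylated STAT6, while Il13ra2 binds IL-13 as a decoy.

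Il33, on the plus strand of chromosome 19 (19:29925114-29960718, GRCm38, GENCODE vM21), and Il1rl1, on the plus strand of chromosome 1 (1:40429570-40465415), each have more than 1 annotated start, and counts per gene do not tell which start was used. The sequence before the starts is shown for Il33 and its receptor gene because both had higher counts in lesional skin of CTL mice. The windows are the 250 bases before a RefSeq start on the plus strand (RefSeq, GRCm38.p6), and none of the 3 printed overlaps an exon that GENCODE gives to the gene. Capitals mark a match to TTCNNNNGAA, the spaced palindrome known for STAT6. For Il33 the windows were chr19:29924863-29925112 before the first start and chr19:29945540-29945789 before a start inside the gene, and for Il1rl1 the window was chr1:40429320-40429569 before the first start.
Il33 first start: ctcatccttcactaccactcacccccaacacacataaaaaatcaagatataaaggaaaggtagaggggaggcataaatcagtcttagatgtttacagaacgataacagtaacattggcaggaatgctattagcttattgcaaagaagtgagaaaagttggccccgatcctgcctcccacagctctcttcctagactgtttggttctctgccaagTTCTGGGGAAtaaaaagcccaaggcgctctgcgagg
Il33 internal start: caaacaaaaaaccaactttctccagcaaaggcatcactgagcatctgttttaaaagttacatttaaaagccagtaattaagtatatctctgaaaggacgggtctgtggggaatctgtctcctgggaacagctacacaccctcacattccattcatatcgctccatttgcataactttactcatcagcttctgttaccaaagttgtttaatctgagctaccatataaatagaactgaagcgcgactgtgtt
Il1rl1 first start: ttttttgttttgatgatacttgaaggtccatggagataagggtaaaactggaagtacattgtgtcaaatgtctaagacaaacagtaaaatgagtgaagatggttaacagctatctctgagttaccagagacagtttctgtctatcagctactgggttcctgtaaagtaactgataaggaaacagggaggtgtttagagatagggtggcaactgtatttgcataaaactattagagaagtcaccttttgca
RefSeq entries were matched by symbol for 9 of the 10 genes, Tslp being the exception, and gave 12 windows. The motif TTCNNNNGAA reads the same on both strands, and it was found in 2 of the 12 windows, at a distance of 36 bases before the first Il33 start and 167 bases before 1 of the Il4 starts. It was present in 5.85% of the 32851 windows of this length in the genome table. The related TTCNNNGAA, known for other STAT proteins, was in 0 of the 12 windows and in 7.02% of all. The motifs were chosen after the expression values were known, and a match describes letters and shows no binding.

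Library totals were between 18004136 and 21085544 counts, and levels are given as CPM, a library's counts relative to its TMM-scaled size. The epidermal keratins Krt5 and Krt14 were at 3797 CPM or more and 2420 CPM or more in every library. The library of baseline butyrate replicate 3 stood apart. Among 14319 genes with a mean of at least 1 CPM, 27% differed by more than 2-fold between the baseline butyrate mice, against 1.72% to 4.9% within the other pairs, and 5 of the 10 members did (Il33, Il1rl1, Tslp, Il13 and Il2rg). In replicate 3, 1.84% of the counts were in genes outside the test, against 0.0246% to 0.03% in the other libraries. Results of the members that rest on the baseline butyrate mice are therefore given with and without it. All 10 members passed the filter on low counts, but Il4 and Il13 passed it only through the lesional libraries. A call means an FDR below 0.1 and a fold-change above 2 in edgeR's quasi-likelihood test over all 8 mice.

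Lesional and baseline skin of CTL mice were compared first. Of the 10 members, 5 were called higher in lesional than in baseline CTL skin and 0 lower, where 2.37% of the 15163 tested genes were called higher and 1.21% lower. The genes that rose were Il33, Il1rl1, Il13, Il4ra and Il13ra2, and they include a ligand, its receptor, a signalling chain and a decoy chain. Il13 entered the test only through the lesional libraries in which it is high, so its call is no separate evidence, and of the 8 members that the baseline libraries alone would have let in, 4 were called, with a median log2 fold change of 1.59. In bulk skin, fewer cells of a type and less RNA per cell cannot be told apart, which holds for each level given here. The median log2 fold change of the 10 members was 2.09, against -0.02 over all tested genes, and 9 members lay above 0. Groups of 2 mice did not overlap for 9 members that were higher and 1 that was lower, but 36.7% and 38.5% of all tested genes were apart in these directions.

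Il33 was at 31.9 and 39.2 CPM in baseline CTL skin and at 170 and 167 CPM in lesional CTL skin. Both lesional CTL mice were above every other mouse, and the log2 fold change was 2.24 ± 0.50 (SE, edgeR FDR 0.0905). Il1rl1, which encodes the IL-33 receptor ST2, was at 6.45 and 7.83 CPM in baseline and at 55.7 and 57.0 CPM in lesional CTL skin. The lesional values again lay above all 6 other mice, with a log2 fold change of 2.98 ± 0.38 (edgeR FDR 0.0322). Ligand and receptor thus rose together, by 4.74-fold and 7.89-fold.

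Il13, the cytokine that shares a receptor with IL-4, was near the limit of detection without allergen. Its counts were 2 and 0 in baseline CTL and 68 and 35 in lesional CTL skin, that is 0.111, 0, 3.63 and 1.62 CPM. The ratio of the summed counts was 45.9, with a 95% counting interval of 12.4 to 384, and edgeR gave an FDR of 0.0672. With 1 mouse left out its log2 fold change of 5.40 ran from 4.48 to 8.71, the latter without baseline CTL replicate 1, when the baseline library that was left held 0 counts. Il4, whose product drives T helper 2 differentiation, was sparser still, at 0.111 and 0.222 CPM (2 and 4 counts) in baseline and 1.23 and 0.508 CPM (23 and 11 counts) in lesional CTL skin. The lesional values were both above the baseline values, the count ratio was 5.05 (2.10 to 14.7), and the gene was not called (edgeR FDR 0.210). These intervals cover counting error only. Il4 was under 1 CPM in every library but lesional CTL replicate 4, and Il13 was under 1 CPM in all 4 baseline libraries, where 3 counts correspond to 0.143 to 0.169 CPM.

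The receptor chains split. Il4ra, the chain shared by the IL-4 and IL-13 receptors, was at 59.4 and 79.7 CPM in baseline and 273 and 262 CPM in lesional CTL skin. Its lesional CTL values were the highest of all groups (log2 fold change 1.94 ± 0.32, edgeR FDR 0.0458). Il13ra2, the decoy, was at 3.06 and 2.33 CPM in baseline and 19.3 and 15.1 CPM in lesional CTL skin, a log2 fold change of 2.67 ± 0.36 (edgeR FDR 0.0372). Il13ra1, a partner chain of Il4ra, was at 166 and 137 CPM in baseline and 231 and 211 CPM in lesional skin. Its lesional values were higher without a call (0.54 ± 0.30, edgeR FDR 0.358). Il2rg, the common gamma chain used with Il4ra in lymphocytes, was at 11.7 and 14.3 CPM in baseline and 36.3 and 25.3 CPM in lesional skin, and it was not called either (1.25 ± 0.51, edgeR FDR 0.248).

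The TSLP pair gave no call. Tslp was at 5.61 and 6.60 CPM in baseline and at 3.84 and 4.02 CPM in lesional CTL skin. It was the only member whose lesional CTL values lay below the baseline values, with a log2 fold change of -0.64 ± 0.81 and an interval of -2.60 to 1.33 (edgeR FDR 0.677). Its receptor chain Crlf2 was at 7.50 and 8.60 CPM in baseline and 12.3 and 13.0 CPM in lesional CTL skin. The groups were apart, with a log2 fold change of 0.65 ± 0.23 (edgeR FDR 0.208).

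**Figure D1:**
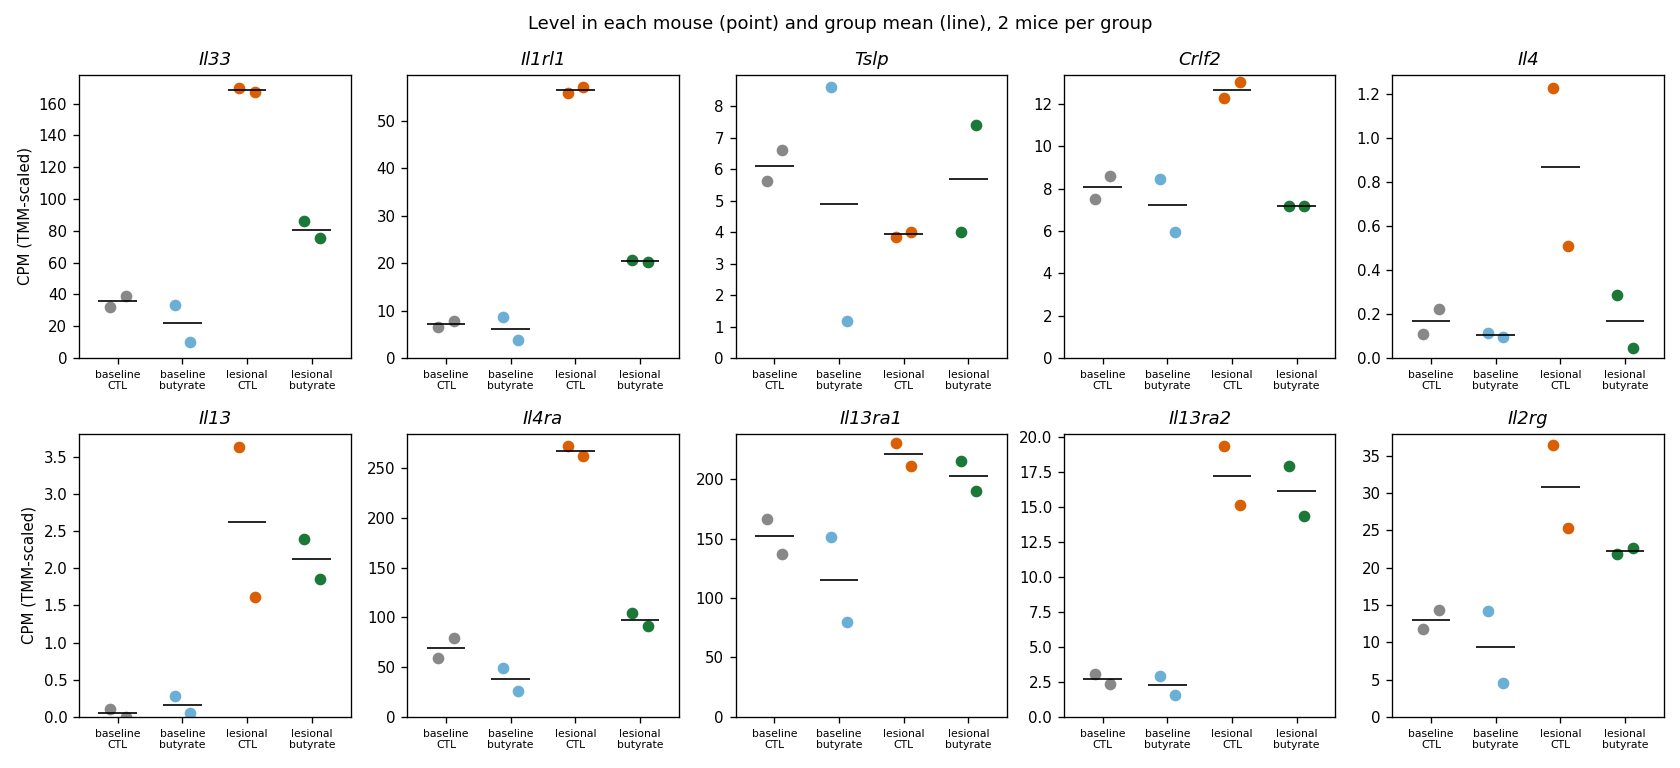
Levels of the 10 genes in CPM (linear axes from 0, each with its own scale) in every mouse, with points for mice and lines for the mean of 2 mice. Il33, Il1rl1 and Il4ra reach 170, 57.0 and 273 CPM in lesional CTL skin and lie between baseline and lesional CTL levels in lesional butyrate skin, while Il13ra2 is at 14.3 to 19.3 CPM in all 4 lesional mice.

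These calls depended on the spread estimated from all 8 mice. In every fit below, calls of Il4 and Il13 between lesional and baseline skin are no separate evidence. Both genes passed the filter only through the lesional libraries in which they are high. Without baseline butyrate replicate 3, a library that is not part of the contrast, 7 members were called, Il4 (edgeR FDR 0.0843) and Il2rg (0.00929) being added, where 6.33% of genes were called higher. The count was 7 as well without replicate 1 (6.31% of genes higher) and without both (6.29%). With any 1 of the other 6 mice left out, 0 members were called, and 0% to 0.556% of genes were called higher.

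Within a library, members can be ranked by CPM per kb of merged exon. In baseline CTL skin Il13ra1 stood first at 40.9 ± 5.52 CPM per kb (SD, n = 2), above Il33 at 12.3 ± 1.80 and Il4ra at 11.6 ± 2.39, which did not differ beyond their spread. Il2rg, Crlf2 and Tslp followed at 5.44 ± 0.752, 5.39 ± 0.521 and 4.59 ± 0.527 CPM per kb, without differing beyond their spread. Il13ra2 and Il1rl1 were near 1 CPM per kb, at 1.18 ± 0.225 and 1.04 ± 0.142, and Il4 and Il13 were lowest, at 0.136 ± 0.0639 and 0.0461 ± 0.0652. In lesional CTL skin Il13ra1 (59.6 ± 3.72) and Il33 (58.4 ± 0.711) no longer differed beyond their spread, and Il4ra came next at 44.5 ± 1.22. Tslp had moved below Il1rl1 and Il13ra2, at 2.95 ± 0.0914 CPM per kb against 8.18 ± 0.130 and 7.54 ± 1.31.

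In butyrate mice the same step, from baseline to lesional skin, gave 1 call among the 10 members, Il13ra2, where 0.277% of tested genes were called higher and 0.0725% lower. Il13ra2 was at 2.93 and 1.57 CPM in baseline and 17.9 and 14.3 CPM in lesional butyrate skin. Both lesional mice were above all 4 baseline mice, with a log2 fold change of 2.84 ± 0.36 (edgeR FDR 0.0732). Il33 was at 33.4 and 10.2 CPM in baseline and 86.0 and 75.5 CPM in lesional butyrate skin, which did not overlap (1.89 ± 0.50, edgeR FDR 0.251). For Il1rl1 the values were 8.63 and 3.81 CPM, then 20.6 and 20.2 CPM (1.72 ± 0.36, edgeR FDR 0.191). Il4ra was at 49.2 and 26.1 CPM, then 104 and 91.1 CPM (1.38 ± 0.31, edgeR FDR 0.198). In these 3 genes the lower value of the baseline pair was that of replicate 3.

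Il13 had 5 and 1 counts in baseline and 50 and 40 counts in lesional butyrate skin, or 0.282, 0.0476, 2.39 and 1.86 CPM. The count ratio was 13.7 (6.05 to 38.3), and edgeR gave an FDR of 0.218. The log2 fold change was 0.81 ± 0.30 for Il13ra1, 1.25 ± 0.51 for Il2rg, 0.65 ± 1.05 for Il4, 0.22 ± 0.81 for Tslp and -0.01 ± 0.23 for Crlf2, and none of these was called. The groups were apart for 7 members, each higher in lesional skin, where 15.7% of all tested genes were. DESeq2 called 5 members in this contrast (Il33, Il1rl1, Il13, Il4ra and Il13ra2) against 2.55% of genes called higher. Il13 entered that DESeq2 test only through the lesional libraries in which it is high. A fit of these 4 mice alone called 0 members and 0% of genes.

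Without baseline butyrate replicate 3 the log2 fold changes were 1.28 for Il33, 1.24 for Il1rl1 and 2.46 for Il13ra2, which were then called (edgeR FDR 0.0298, 0.0298 and 0.0261) together with 2.5% of genes. For Il4ra it was 0.99, under the fold threshold (edgeR FDR 0.0564). The remaining log2 fold changes without replicate 3 were 2.89 for Il13, 0.65 for Il2rg, 0.42 for Il13ra1, 0.53 for Il4, -0.59 for Tslp and -0.24 for Crlf2, and none of these was called. Tslp thus turned from above to below 0. Without replicate 1 instead, 8 members were called (all but Crlf2 and Il4), where 11.1% of genes were called higher. The log2 fold change of Il33 was 2.98 in that fit, so that it ran from 1.28 to 2.98 with the library that was left out of this pair. With any 1 of the other 6 mice left out, 0 members were called, beside 0% to 0.0384% of genes.

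**Figure D2:**
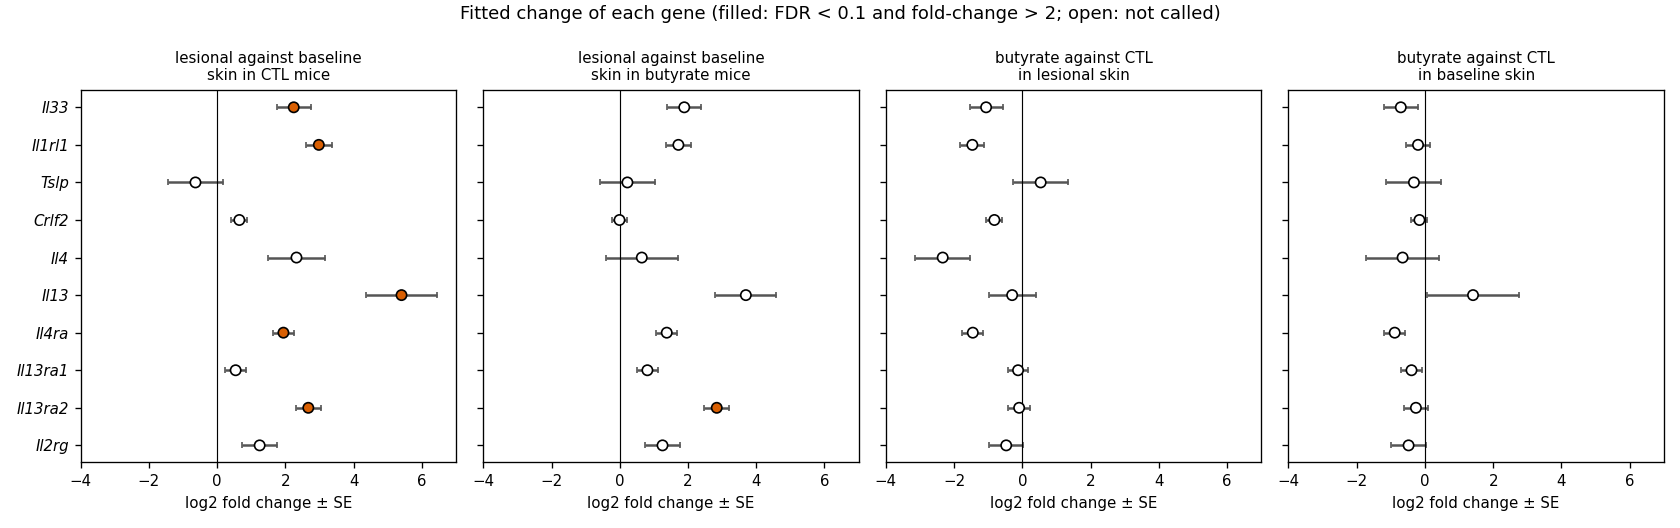
Fitted log2 fold change of each gene with its standard error in 4 comparisons of 2 mice against 2. Filled points are called: 5 genes in lesional against baseline skin of CTL mice, 1 gene (Il13ra2) in butyrate mice, and 0 in the comparisons of butyrate with CTL.

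Butyrate and CTL mice were then compared within lesional skin. In this contrast 9 of the 10 members had a negative log2 fold change, but edgeR called 0 members over all 8 mice, and 0% of the tested genes were called. At an unadjusted p under 0.05 there were 4 members, all lower (Il1rl1, Crlf2, Il4 and Il4ra), where 2.44% of genes were lower at that threshold. The median log2 fold change of the members was -0.65, against -0.01 over all tested genes. Il4 passed the filter on low counts only through the lesional CTL libraries, in which it is high. Its lower values in butyrate mice are therefore no separate evidence in any count of members given for this contrast. In 6 members (Il33, Il1rl1, Crlf2, Il4, Il4ra and Il2rg) both butyrate mice were below both CTL mice, where 22.5% of genes were apart in that direction, and no member was apart in the other, where 22.4% of genes were. The study labelled Il33, Il1rl1 and Il4ra in its own plot of lesional skin, also with 2 mice a group, so their direction here is not independent evidence.

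The IL-33 axis and Il4ra had the largest differences among the well-counted members. Il33 was at 170 and 167 CPM in lesional CTL and 86.0 and 75.5 CPM in lesional butyrate skin. The butyrate values were below the CTL values and above all baseline values, and the log2 fold change was -1.06 ± 0.49 with an interval of -2.24 to 0.12 (edgeR FDR 1.00). Il1rl1 was at 55.7 and 57.0 CPM against 20.6 and 20.2 CPM. The spread within either pair was small beside the difference, which was -1.47 ± 0.35 on the log2 scale (-2.32 to -0.61, edgeR FDR 0.737). Il4ra was at 273 and 262 CPM against 104 and 91.1 CPM, a log2 fold change of -1.45 ± 0.31 (-2.21 to -0.70, edgeR FDR 0.737).

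Calls for these 3 genes changed with the mice that entered the fit and with the tool. A fit of the 4 lesional mice alone called Il1rl1 (edgeR FDR 0.0613) and Il4ra (0.0738) beside 0.148% of genes called lower. On the same 4 mice limma-voom called both at an FDR of 0.0818, with 0.0806% of genes lower. Over all 8 mice DESeq2 called both (FDR 0.0228 and 0.00767, with 0.818% of tested genes called), and limma-voom called 0 members and 0.0066% of genes. Without baseline butyrate replicate 3, edgeR called Il33, Il1rl1 and Il4ra at an FDR of 0.0457, 0.0240 and 0.0412, with 0.886% of genes called lower. The log2 fold changes themselves stayed between -1.16 and -0.97 for Il33 and between -1.48 and -1.45 for Il1rl1 over all alternatives. An exact permutation test of 2 against 2 mice cannot give a p below 0.333.

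The IL-13 arm differed less. Il13 was at 3.63 and 1.62 CPM (68 and 35 counts) in lesional CTL and 2.39 and 1.86 CPM (50 and 40 counts) in lesional butyrate skin. The groups overlapped, and the log2 fold change of -0.30 ± 0.68 had an interval of -1.96 to 1.36 and turned to 0.39 without lesional CTL replicate 4. Il13ra1 was at 231 and 211 CPM against 215 and 190 CPM, which overlapped (-0.13 ± 0.30, -0.85 to 0.60). Il13ra2 was at 19.3 and 15.1 CPM against 17.9 and 14.3 CPM and overlapped as well (-0.09 ± 0.33, -0.89 to 0.70), and its sign turned without that mouse too (0.09). Those intervals leave room for changes of over 1.5-fold in either direction.

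Il4 had 23 and 11 counts in lesional CTL and 6 and 1 counts in lesional butyrate skin, or 1.23 and 0.508 CPM against 0.286 and 0.0465 CPM. The count of 1 was under the floor of 3 counts, and the ratio of CTL to butyrate counts was 5.10 with a counting interval of 2.23 to 13.6 (log2 fold change -2.33 ± 0.81, edgeR FDR 0.942). The fitted value rested on single libraries, at -4.04 when replicate 3 of the lesional butyrate pair was left out, -1.57 when replicate 4 was, and -1.58 when lesional CTL replicate 4 was. Crlf2 was at 12.3 and 13.0 CPM against 7.16 CPM in both butyrate mice, a log2 fold change of -0.82 ± 0.23 (edgeR FDR 0.831). Its butyrate values lay within the range of baseline skin, 5.95 to 8.60 CPM. Tslp was at 3.84 and 4.02 CPM against 4.01 and 7.40 CPM and overlapped (0.54 ± 0.81, -1.42 to 2.498). Il2rg was at 36.3 and 25.3 CPM against 21.8 and 22.6 CPM (-0.47 ± 0.50, -1.67 to 0.73).

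Ratios within a library do not depend on its scaling, and they put the chains of the IL-4 and IL-13 receptors side by side. Il4ra relative to Il13ra1, each as CPM per kb, was 0.730 and 0.767 in lesional CTL and 0.299 and 0.297 in lesional butyrate skin. It was 0.221 and 0.359 in baseline CTL and 0.201 and 0.202 in baseline butyrate skin, so the lesional butyrate values fell inside the range of baseline CTL. Il13ra2 relative to Il13ra1 was 0.136 and 0.116 in lesional CTL and 0.135 and 0.123 in lesional butyrate skin, against 0.0276 to 0.0321 in the 4 baseline mice. The ratio with the decoy thus separated lesional from baseline skin and overlapped between treatments, whereas the ratio with Il4ra was highest in lesional CTL skin. These ratios are descriptions of the same counts and were not tested.

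**Figure D3:**
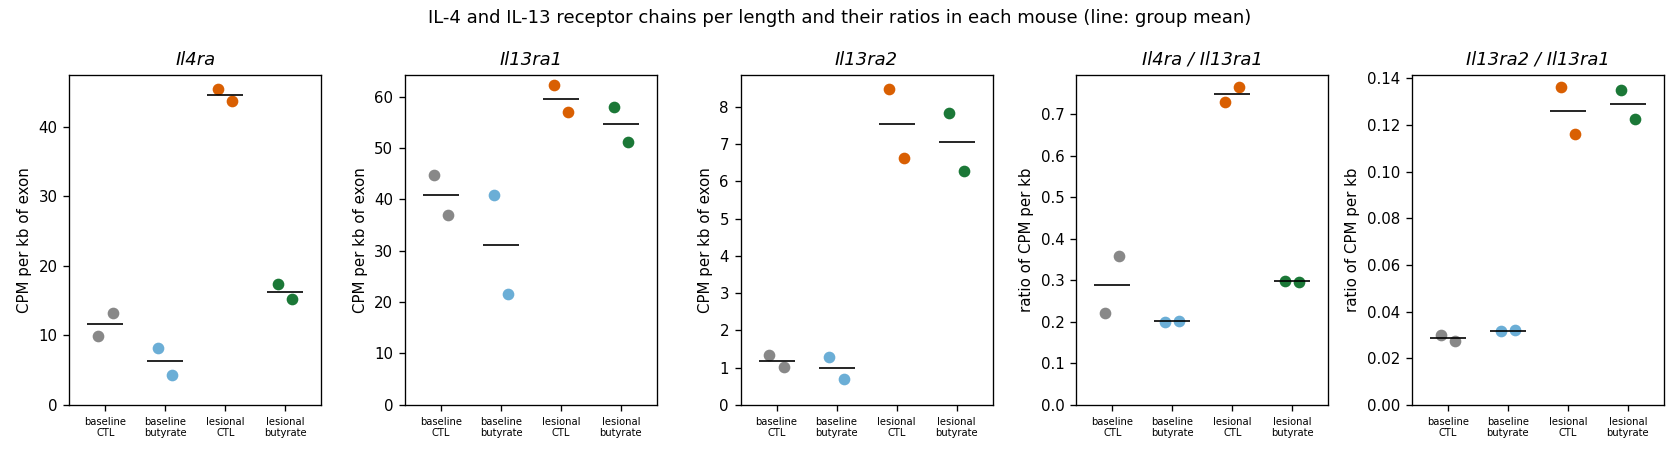
CPM per kb of exon of Il4ra, Il13ra1 and Il13ra2, and the ratios Il4ra to Il13ra1 and Il13ra2 to Il13ra1, in every mouse (points) with the mean of 2 mice (lines) on axes from 0. The Il4ra ratio is 0.730 and 0.767 in lesional CTL skin and at most 0.359 elsewhere, and the Il13ra2 ratio is 0.116 to 0.136 in all lesional mice and at most 0.0321 at baseline.

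In baseline skin 0 of the 10 members were called between butyrate and CTL, and 0% of tested genes were. DESeq2 and limma-voom called 0 members too, with 0.383% and 0% of genes called. Il4ra was the only member whose groups were apart, at 59.4 and 79.7 CPM in CTL and 49.2 and 26.1 CPM in butyrate mice (-0.89 ± 0.31, edgeR FDR 0.714), where 15.9% of genes were apart in that direction. Without replicate 3 its log2 fold change was -0.50, with an edgeR FDR of 1.00. Tslp was at 8.63 and 1.19 CPM in the baseline butyrate mice, on both sides of its 5.61 and 6.60 CPM in baseline CTL. The remaining members had log2 fold changes between -0.71 (Il33) and 1.41 (Il13, 2 counts against 6). Without replicate 3 that of Il33 was -0.09, and the sign turned for Il1rl1, Tslp, Crlf2, Il13ra2 and Il2rg. Without replicate 1 instead, 4 members were called lower (Il33, Tslp, Il4ra and Il2rg), where 14.7% of genes were called lower, so that 1 library of this pair decided the comparison for the members and for the other genes alike.

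The difference between the butyrate effects in lesional and in baseline skin was called for 0 of 10 members, again with 0% of genes called. DESeq2 and limma-voom called 0 members, beside 0.244% and 0% of genes. The smallest p was that of Il1rl1, whose effect was lower by 1.26 ± 0.50 log2 units in lesional skin (edgeR FDR 0.840), and at an unadjusted p under 0.05 it was the only member, where 2.08% of genes were lower. Without baseline butyrate replicate 3 this difference was -1.74 (edgeR FDR 0.318) and that of Il33 was -0.97 (edgeR FDR 0.441). Neither was called. Without replicate 1 instead, Tslp and Il2rg were called, both higher, where 12.3% of all genes were called higher, so that this count says nothing particular about the members.

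Other chains that pair with these receptors, or serve related cytokines, were read from a list of 13, of which 12 were tested. In lesional against baseline CTL skin 1 was called higher, Il2ra, the IL-2 receptor alpha chain, 5.64-fold with an SE of 0.47 on the log2 scale (edgeR FDR 0.0645). Of all tested genes 2.37% were called higher in that contrast. Il1rap, the second chain of the IL-33 receptor, was at 39.1 and 32.5 CPM in baseline and 70.4 and 57.3 CPM in lesional CTL skin, and its log2 fold change of 0.83 ± 0.19 passed the FDR (0.0904) but not the fold threshold. Between butyrate and CTL in lesional skin all 12 log2 fold changes were negative, with a median of -0.39, and 0 were called. At an unadjusted p under 0.05, 2 were lower, where 2.44% of all tested genes were. The smallest p-values were those of Il17ra, a chain of the IL-17 and IL-25 receptors (-0.83 ± 0.21), and Il1rap (-0.53 ± 0.19), both above the edgeR FDR threshold (0.737 and 0.949). In lesional butyrate skin Il1rap was at 49.7 and 39.0 CPM. Without baseline butyrate replicate 3, 6 of the 12 were called higher and 1 lower between lesional and baseline CTL skin (6.33% and 6.12% of all genes), and 1, Csf2rb, was called lower between butyrate and CTL in lesional skin.

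Of 7 other cytokines of type 2 inflammation 3 were tested. In lesional against baseline CTL skin 1 was called higher, where 2.37% of all tested genes were. It was Il5, the eosinophil growth factor, at 0.111 and 0 CPM (2 and 0 counts) in baseline and 0.801 and 0.738 CPM (15 and 16 counts) in lesional CTL skin (3.65 ± 0.83, edgeR FDR 0.0913). Like Il13 it passed the filter only through the lesional libraries, so that its call follows in part from the filter. In lesional butyrate skin it was at 0.477 and 0.419 CPM, and the contrast with CTL gave -0.77 ± 0.60 (edgeR FDR 1.00). Areg, an epidermal growth factor receptor ligand that type 2 innate lymphoid cells can secrete, was at 31.0 and 21.04 CPM in lesional CTL and 11.3 and 5.86 CPM in lesional butyrate skin. Those groups were apart without a call (-1.60 ± 0.68, edgeR FDR 1.00). Csf2, the other gene tested, was at 0.111 and 0 CPM in baseline CTL and 0.32 and 0.46 CPM in lesional CTL skin. It was at 0.62 and 0.56 CPM in lesional butyrate skin and was not called. Csf2 too passed the filter only through lesional libraries. Il9, Il31 and Il3 had at most 1 count in any library.

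Signalling genes below the receptors went both ways between lesional and baseline CTL skin, 9 of the 18 tested up and 9 down by log2 fold change, with a median of 0.02. At an unadjusted p under 0.05 there were 6 higher and 2 lower, where 9.56% and 10.1% of all tested genes were. The groups were apart for 8 that were higher and 4 that were lower, where 36.7% and 38.5% of all tested genes were. The counts of groups apart therefore say little about this list. The only call was Socs1, a feedback inhibitor of cytokine signalling, at 5.06 and 4.83 CPM in baseline and 15.1 and 13.2 CPM in lesional CTL skin (1.51 ± 0.25, edgeR FDR 0.0450). Stat6 itself was between 146 and 171 CPM in 7 of the 8 libraries and at 108 CPM in baseline butyrate replicate 3. Between butyrate and CTL in lesional skin 0 of 18 were called. At an unadjusted p under 0.05, 3 were lower and 1 higher, where 2.44% and 2.4% of all tested genes were. The smallest p-values were those of the feedback inhibitors Socs3 (-1.44 ± 0.37, edgeR FDR 0.737) and Socs1 (-0.86 ± 0.24, edgeR FDR 0.823). Socs3 was called in both of these contrasts once baseline butyrate replicate 3 was left out.

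Of 16 genes known to respond to STAT6, 15 were listed and 14 tested. Lesional against baseline CTL skin gave 2 calls higher and 1 lower, where 2.37% and 1.21% of all tested genes were called. Pdcd1lg2, which encodes the ligand PD-L2 on dendritic cells, rose (3.50 ± 0.71, edgeR FDR 0.0734), as did Socs1, which is also on the signalling list. Pdcd1lg2 was at 0.0556 and 0.278 CPM in baseline CTL and 2.24 and 1.66 CPM in lesional CTL skin. Like Il13 and Il5 it passed the filter only through the lesional libraries, so that its call follows in part from the filter. Arg1, the arginase of alternatively activated macrophages, fell from 41.7 and 32.2 CPM to 8.81 and 10.9 CPM (-1.90 ± 0.21, edgeR FDR 0.0263). It fell in butyrate mice too (-1.77 ± 0.21, edgeR FDR 0.0709), where it was the only call of the list and stood at -1.79 ± 0.22 without baseline butyrate replicate 3 (edgeR FDR 0.0261), and between butyrate and CTL in lesional skin it was at 0.03 ± 0.21. In that last contrast 0 of the 14 were called and the median was -0.46. At an unadjusted p under 0.05, 1 was lower, where 2.44% of all tested genes were. The smallest p-values were those of Socs1 and of Mrc1, the mannose receptor of macrophages (-1.03 ± 0.62, edgeR FDR 1.00). Without baseline butyrate replicate 3 the log2 fold changes of Socs1 and Mrc1 in this contrast were -0.86 and -1.03.

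**Figure D4:**
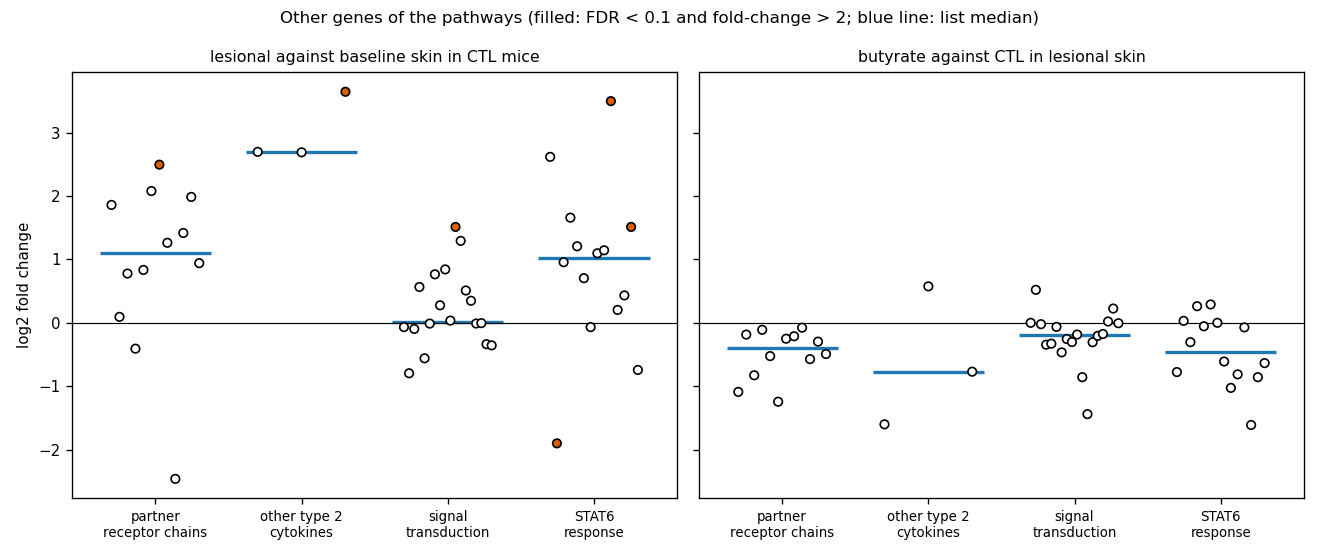
Log2 fold changes of the tested genes of 4 further lists in lesional against baseline skin of CTL mice and in butyrate against CTL in lesional skin, with filled points for called genes and blue lines for list medians. The comparison of lesional with baseline skin shows the called genes Il2ra, Il5, Socs1 (on 2 lists), Pdcd1lg2 and Arg1, and the comparison of butyrate with CTL has 0 calls.

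Markers of several cell types differed between the groups alongside the members. For mast cells and basophils, which carry ST2, 5 of 11 tested markers were called higher in lesional than in baseline CTL skin. In that contrast 2.37% of all tested genes were called higher and 1.21% lower, which stands beside each list here. Among the mast cell and basophil markers 1 of the 11 had a negative log2 fold change there. It was Mrgprb2, at 16.4 and 15.8 CPM in baseline and 4.64 and 5.58 CPM in lesional CTL skin. The summed level of the mast cell and basophil markers went from between 187 and 237 CPM to between 532 and 607 CPM. In lesional butyrate skin that sum was 438 and 445 CPM, and 9 of the 11 log2 fold changes against CTL were negative (0 called). Hdc was at 77.1 and 80.3 CPM in lesional CTL and 20.7 and 16.5 CPM in lesional butyrate skin. Cpa3 overlapped, at 117 and 87.5 CPM against 101 and 105 CPM. The basophil protease Mcpt8 was at 3.79 and 0.923 CPM in lesional CTL and 0.286 and 0.512 CPM in lesional butyrate skin, with at most 1 count in any baseline library. Of 12 T cell markers 4 were called higher in lesional than in baseline CTL skin, beside that 2.37% of genes. Their sums were 28.8 to 32.0 CPM in baseline CTL, 76.8 to 141 CPM in lesional CTL, and 65.8 and 88.1 CPM in lesional butyrate skin. Mcpt8, Fcer1a (at most 0.191 CPM at baseline) and Cd8a (at most 0.282 CPM) passed the filter only through the lesional libraries. Calls of such markers follow in part from the filter. Of 10 genes fixed for type 2 innate lymphoid cells, which also carry ST2, 3 were called higher in lesional CTL skin and 1 lower, but these are Il1rl1, Il13 and Il5, named above, and Arg1. The summed level of that list went the other way, from 657 and 545 CPM in baseline CTL to 477 and 465 CPM in lesional CTL skin, with 591 and 545 CPM in lesional butyrate skin, and it is mostly Rora, Gata3 and Bcl11b, which other skin cells express too.

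Neutrophil markers, which are no part of the type 2 pathway, shifted most. Their sums were at most 28.3 CPM in baseline CTL, 2846 and 1779 CPM in lesional CTL, and 803 and 375 CPM in lesional butyrate skin. S100a8 (999.8 and 579 CPM in lesional CTL skin) and S100a9 (1466 and 836 CPM) made up most of the lesional sums. Between lesional and baseline CTL skin 8 of the 9 tested had a positive log2 fold change. Among them Retnlg (at most 0.169 CPM at baseline) and Trem1 (at most 0.238 CPM) passed the filter only through the lesional libraries. Their direction in this contrast follows in part from the filter. Mpo was at 4.67 and 0.999 CPM in baseline and 1.07 and 1.06 CPM in lesional CTL skin, and Ly6g was at most 0.231 CPM. All 9 tested were lower in lesional butyrate than in lesional CTL skin by log2 fold change, with a median of -2.11 and 0 called. Summed keratinocyte markers were at 14594 and 15309 CPM in lesional CTL and between 20812 and 22886 CPM in lesional butyrate skin, with 9 of 10 log2 fold changes above 0 (0 called). The endothelial sum was 325 to 337 CPM in lesional CTL and 208 to 316 CPM in lesional butyrate skin, and that of fibroblasts overlapped. For macrophages and dendritic cells the sum was 595 and 788 CPM in baseline CTL, 957 and 1150 CPM in lesional CTL and 488 and 864 CPM in lesional butyrate skin, with 8 of 9 log2 fold changes negative between butyrate and CTL in lesional skin (0 called). Eosinophil markers summed to 5.95 and 7.77 CPM in baseline CTL, 29.7 and 40.5 CPM in lesional CTL and 42.2 and 29.03 CPM in lesional butyrate skin. All 3 that were tested were higher in lesional CTL skin at an unadjusted p under 0.05, and 1 was called, Ccr3, the eotaxin receptor, at 0.389 and 0.222 CPM in baseline and 1.60 and 3.55 CPM in lesional CTL skin (3.06 ± 0.57, edgeR FDR 0.0604). In lesional butyrate skin Ccr3 was at 0.573 and 0.605 CPM. Ear1 (at most 0.0555 CPM at baseline) passed the filter only through the lesional libraries, so that its direction follows in part from the filter. Ear2, an eosinophil ribonuclease, made up most of the sum, while Epx, the eosinophil peroxidase, had 0 counts in all 8 libraries and Prg2 was at most 0.369 CPM. Log2 fold changes between butyrate and CTL in lesional skin were also fitted with baseline butyrate replicate 3 left out. They ran from -3.52 (Trem1) to -0.04 (Mpo) for the 9 neutrophil markers and from -0.16 (Krt14) to 1.80 (Krt10) for the 10 keratinocyte markers. For mast cell and basophil markers they ran from -2.52 (Mcpt8) to 0.88 (Mrgprb2). In that fit Il33, Il1rl1 and Il4ra were at -1.06, -1.465 and -1.45, so that several markers moved as far as these members or further. Markers and these members alike had no call in this contrast over all 8 mice, so the lack of a call does not set the markers apart. The part of these cell types in the differences of the 10 members was not tested.

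Among genes that were not members, those whose profile over the 8 libraries lay closest were found by the root mean square difference of log2 CPM, each centred on its own mean, over 14188 genes. For Il33 they were Gpr35 (0.205 log2 units), Il4i1, an enzyme gene known to be induced by IL-4 (0.229), and Il18rap, a chain of the IL-18 receptor (0.237). For Il1rl1 they were the endothelial adhesion genes Selp (0.138) and Sele (0.184), and the pyrin gene Mefv (0.209). Selp was at 39.6 and 36.3 CPM in lesional CTL and 13.4 and 13.96 CPM in lesional butyrate skin, against 2.86 to 6.55 CPM at baseline. For Il4ra they were Csf2rb2 (0.254) and Csf2rb (0.262), near-identical genes of the beta chain for IL-3, IL-5 and GM-CSF whose reads may be split between them, and Cytip (0.265). Il4, under 1 CPM on average, was not compared. Among the other 9 members the closest pair was Il33 with Il1rl1 (0.317), followed by Il33 with Il4ra (0.344), and the farthest was Tslp with Il13 (2.52). The values describe these 8 libraries, which share the step from baseline to lesional skin, and no test was made.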

How the data were processed

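RNA of whole mouse skin was sequenced after TruSeq preparation. The authors ran RNASik, in which STAR 2.5.2 aligned the reads to GRCm38 and featureCounts counted them, and deposited raw counts of protein-coding genes, made with a reverse-stranded setting according to the table's name. The labels name the treatments SCFA (read as butyrate), vehicle (CTL) and the state atopic dermatitis (lesional). Nothing says more of the replicates than that they are separate samples.

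From these counts, CPM values were computed with TMM scaling, and edgeR 4.0.16 (glmQLFit with robust estimation, filterByExpr with a minimum count of 10, R 4.3.3) was fitted to all 8 mice with 1 mean per group, in 5 contrasts over 15163 genes with Benjamini-Hochberg adjustment. Fold changes had a prior count of 0.125, and 3 counts served as the floor. Counting intervals were exact at 95%. As alternatives, other scalings and filters, a prior count of 2, fits without some mice, DESeq2 1.42.0 and limma-voom from limma 3.58.1 were tried. For the lists the fit without baseline butyrate replicate 3 was added after seeing the data. Exon lengths and coordinates came from GENCODE vM21.

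The members and lists were chosen with earlier results of these data known. The rule named all 10 members in each contrast. From the other pathway lists it named every called gene, or, in a list without a call, the 2 with the smallest p in lesional skin, and it named the 3 closest genes in profile to Il33, Il1rl1 and Il4ra. Marker genes and other genes were named after their values were seen. Il4ra shares 571 exonic bases with the antisense gene Gm44876, which was not used here, and Il2rg shares 728 with Gm20489, which had 0 counts in all 8 libraries.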

Additional observations from a re-analysis of the deposited data

How the results depend on the processing

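No paired analysis was possible because no 2 groups of a comparison have over 1 replicate number in common, and a replicate block could not be fitted. Between butyrate and CTL in lesional skin, 0 members were called over all 8 mice, 2 with DESeq2, 2 from the 4 lesional mice alone with edgeR and 2 with limma-voom (this last added after seeing the data), 3 without both baseline butyrate mice, and 0 to 3 with 1 mouse left out, 3 being reached with either baseline butyrate mouse left out (0.874% and 0.886% of genes lower). For lesional against baseline skin the range with 1 mouse left out was 0 to 7 in CTL mice (5 over all) and 0 to 8 in butyrate mice (1 over all). The 7 stood beside 6.31% or 6.33% of genes called higher and the 8 beside 11.1%. In butyrate mice DESeq2 called 5, and the 4 mice alone gave 0 with edgeR and 0 with limma-voom. In baseline skin that range was 0 to 4, with 4 (Il33, Tslp, Il4ra and Il2rg) without baseline butyrate replicate 1, when 24.1% of genes were called, and for the difference of effects 0 to 2 (Tslp and Il2rg without that mouse), when 20.9% were. Where 1 mouse was left out its group held 1 mouse, which was assumed to vary like the others.

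Of 537 values of members under the other alternatives 508 kept direction and side of the threshold, 17 became called, 3 lost the call and 9 reversed. Those 9 were near 0. For Crlf2 between lesional and baseline butyrate mice (-0.01) they were 0.0053 with RLE, 0.051 with library totals, 0.0076 with upper quartiles, 0.0025 without a filter, 0.026 with limma-voom, 0.0079 with DESeq2 and 0.023 with limma-voom on these mice. For the difference of effects in Il2rg (0.0072) they were -0.043 with library totals and -0.0024 with upper quartiles. With 1 mouse left out, 317 of 400 were kept and 22 reversed, and the log2 fold changes that reversed ran over the following ranges. Between butyrate and CTL in lesional skin they were -0.77 to 0.39 for Il13 and -0.26 to 0.094 for Il13ra2. In baseline skin they were -0.91 to 0.27 for Il1rl1, -2.36 to 0.497 for Tslp, -0.44 to 0.070 for Crlf2, -0.20 to 4.72 for Il13, -0.78 to 0.12 for Il13ra2 and -1.54 to 0.13 for Il2rg. Between lesional and baseline butyrate mice they were -0.59 to 2.26 for Tslp, -0.24 to 0.27 for Crlf2 and -1.05 to 1.43 for Il4. For the difference of effects they were -0.97 to 0.74 for Il33, -0.12 to 0.81 for Il13ra1, -0.21 to 0.69 for Il13ra2 and -0.60 to 1.07 for Il2rg. The causes were not tested.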

Other observations

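Receptor chains for other cytokines of itch and of barrier cells were read beside Il4ra. Il31ra, a chain of the receptor for the itch cytokine IL-31, was at 89.2 and 74.3 CPM in baseline CTL skin and at 12.1 and 17.6 CPM in lesional CTL skin, opposite in direction to the receptor genes that rose (-2.46 ± 0.82 on the log2 scale, edgeR FDR 0.187). Osmr, its partner, was at 93.7 and 83.5 CPM in baseline and 173 and 168 CPM in lesional CTL skin, apart but without a call (0.94 ± 0.29, edgeR FDR 0.164). Gata3, a transcription factor of T helper 2 and innate lymphoid cells that keratinocytes also express, was at 173 and 155 CPM in baseline and 96.3 and 92.2 CPM in lesional CTL skin. Its log2 fold change of -0.80 ± 0.17 passed the FDR (0.0786) but not the fold threshold, and in lesional butyrate skin it was at 123 and 147 CPM. These genes were chosen after their values were seen.

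Il25, the epithelial cytokine grouped with IL-33 and TSLP, was under 1 CPM in 7 of the 8 libraries and above it in baseline CTL replicate 1. It was not tested.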
